A study of Homo sapiens with 6 samples.

Results

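The genes described here encode the enzymes that attach isoprenoid lipids to proteins and finish the modified ends, in HepG2 cells with or without atorvastatin. The 9 genes were taken from a list by name: *GGPS1*, *FNTA*, *FNTB*, *PGGT1B*, *RABGGTA*, *RABGGTB*, *RCE1*, *ICMT* and *ZMPSTE24*. Of these, 5 (*GGPS1*, *FNTB*, *RABGGTA*, *ICMT* and *ZMPSTE24*) had a transcript cluster annotated with that gene symbol alone, out of 12676 such genes on the array. *RABGGTB* and *RCE1* were covered only by clusters that carry a second gene symbol, and no cluster in the annotation used here carried the symbol of *FNTA* or *PGGT1B*, so that these have no array values here. HepG2 is a human hepatoblastoma cell line. Each of the 6 samples was a well of HepG2 cells kept for 24 h in medium with human lipoprotein deficient serum in place of fetal bovine serum, which the control and the treated wells shared. The 3 control wells received no drug and the 3 treated wells received 10 µM atorvastatin, a statin. RNA of each well was measured on 1 exon array (GeneChip Human Exon 1.0 ST), and the values are log2 values per transcript cluster (the probe sets of a gene, averaged by the authors).

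Statins inhibit HMG-CoA reductase and thereby lower the supply of mevalonate. Mevalonate is converted to farnesyl diphosphate, which feeds sterol synthesis and is also a lipid donor for proteins. GGPS1 extends it to geranylgeranyl diphosphate, the second donor. Farnesyltransferase and geranylgeranyl transferase type I attach these lipids to a cysteine in the CaaX box at the end of proteins such as the Ras GTPases and the lamins. Rab geranylgeranyl transferase modifies the Rab GTPases of vesicle traffic. In CaaX proteins, the RCE1 protease then cuts off the last residues and ICMT methylates the new end, while ZMPSTE24 also cleaves prelamin A. In the liver as in other tissues, prenylation anchors these proteins to membranes.

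The hepatocyte and hepatoma markers measured here had log2 values of 9.43 to 12.34 on the 6 arrays (5 of 8 genes measured, among them *ALB* and *AFP*), while those of endothelium had 3.76 to 5.85 (4 of 4 measured). Fibroblast markers had 5.57 to 7.27 (4 of 4) and leukocyte markers 2.58 to 8.34 (3 of 4), the highest of these being *CD68*. Array medians lay between 6.66 and 6.72, and Pearson coefficients between arrays ran from 0.990 to 0.997. The interquartile range of the values was lowest on the array of control replicate 1 (2.60 log2 units) and next lowest on that of atorvastatin replicate 3 (2.64), against 2.79 to 2.90 on the other 4 arrays. Fewer cells of a type and less RNA per cell cannot be told apart in such bulk samples. The study calls the samples biological replicates but does not say whether the wells came from separately grown cultures. Its methods describe triplicate wells for the arrays, and 4 independent experiments only for the dose response. The *p*-values of the main fit, which includes replicate number, measure the spread of the differences between wells of the same number. Without replicate number in the fit, they measure the spread between the wells of a group. Either spread may be partly technical.

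No measured enzyme gene of prenylation differed between the groups beyond the spread between arrays. Of the 5 genes, 0 passed the correction in limma at a 5% false discovery rate, as did 0% of the 12797 clusters with exactly 1 gene symbol. At an unadjusted *p* under 0.05 the count was also 0 of 5, against 0.992% of all clusters. Without the replicate number in the fit, 0 of 5 passed at either threshold, against 0.0313% and 2.12% of all clusters. All 5 had a higher mean in treated cells, as had 55.8% of all clusters, with differences of 1.00-fold to 1.07-fold. Treated and control arrays overlapped in all 5. Over all clusters, every treated array lay above every control array in 4.57% and below it in 2.68%. A difference of at least 1.2-fold was seen in 0 of 5 genes and in 1.23% of all clusters. The median log2 difference of the 5 genes was 0.04, against 0.01 over all clusters.

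*GGPS1*, the synthase of geranylgeranyl diphosphate, had log2 values of 6.28, 6.61 and 6.53 in control replicates 1 to 3 and of 6.68, 6.61 and 6.41 in treated replicates 1 to 3. Control replicate 1 was the lowest array, and the other 5 arrays overlapped. The control mean was 6.47 ± 0.17 and the treated mean 6.57 ± 0.14 (SD, n = 3 each), which is 1.07-fold. In limma, the log2 difference of 0.10 had a 95% confidence interval of −0.20 to 0.40 (adjusted *p* = 1). This was the largest difference of the 5 genes. It was −0.05 without replicate 1 and 0.0015 without the array of control replicate 1 alone and without the block.

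*FNTB* encodes the beta subunit of farnesyltransferase, which binds the farnesyl donor and the protein. Its log2 values were 9.39, 9.42 and 9.42 in control and 9.39, 9.52 and 9.45 in treated cells. The 3 control arrays lay close together and within the range of the treated arrays. The means were 9.41 ± 0.015 and 9.45 ± 0.068 (SD, n = 3 each), or 1.03-fold. On the log2 scale the difference of 0.04 had limits of −0.18 and 0.26 at 95% confidence, with an adjusted *p* = 1 in limma.

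*RABGGTA*, the alpha subunit of Rab geranylgeranyl transferase, had log2 values of 8.72, 8.64 and 8.64 in control and of 8.71, 8.73 and 8.67 in treated cells. Control replicate 1 lay among the treated arrays here, and the other 2 control arrays lay below them. The means were 8.67 ± 0.045 and 8.70 ± 0.031 (SD, n = 3 each), or 1.03-fold. The log2 difference of 0.04 had 95% confidence limits of −0.18 and 0.26, again with an adjusted *p* = 1 in limma.

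The genes that process the prenylated end were also close to equal in both groups on average. *ICMT*, the methyltransferase, had log2 values of 9.19, 9.28 and 9.33 in control and of 9.36, 9.32 and 9.22 in treated cells. The groups overlapped, with control replicate 1 the lowest array and treated replicate 1 the highest. Its means were 9.27 ± 0.073 and 9.30 ± 0.072 (SD, n = 3 each), and 0.03 separated them (95% confidence interval −0.21 to 0.27, adjusted *p* = 1 in limma). The difference was −0.04 without replicate 1. *ZMPSTE24*, the prelamin A protease, had log2 values of 8.87, 9.25 and 9.31 in control and of 9.24, 9.15 and 9.06 in treated cells. Control replicate 1 was below every other array, while the other 2 control arrays were above every treated array. The means were 9.14 ± 0.24 and 9.15 ± 0.094 (SD, n = 3 each), and 0.0039 separated them (95% confidence interval −0.33 to 0.33, adjusted *p* = 1 in limma). The difference was −0.18 without replicate 1 and −0.13 without the array of control replicate 1 alone and without the block.

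Exact permutation tests of the 6 arrays, two-sided, gave *p* = 0.3 to 1 for the 5 genes, where 3 against 3 arrays cannot go below 0.1. The widest limits of the 5 confidence intervals were −1.25-fold (*ZMPSTE24*) and 1.32-fold (*GGPS1*), and for each gene a change within its own limits was not excluded by the 6 arrays. For the direction of the means, 2 of the 5 genes (*FNTB* and *RABGGTA*) were higher in treated cells without replicate 1, and 3 without the array of control replicate 1 alone.

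**Figure D1:**
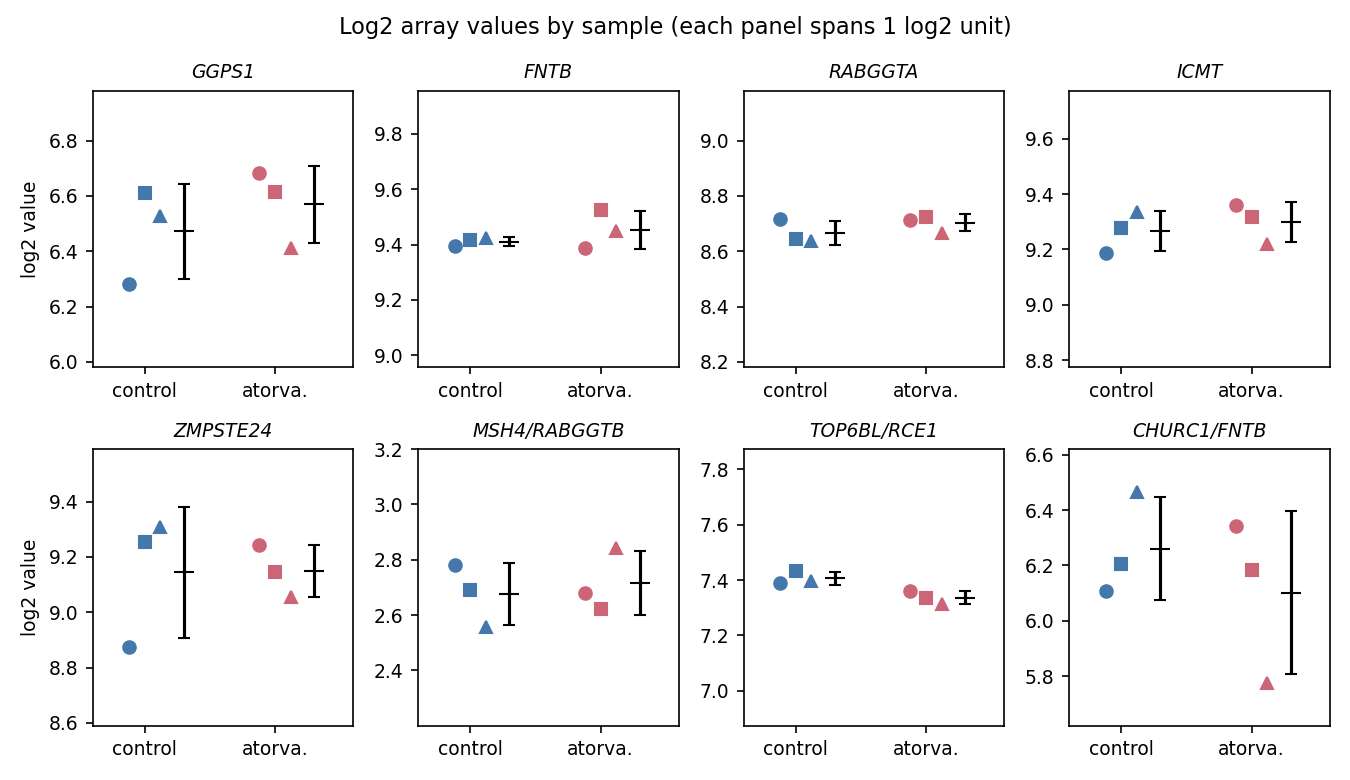
Log2 array values of the 5 genes with a cluster of their own and of 3 clusters shared with another gene, in control (blue) and atorvastatin-treated (red) cells. Circles, squares and triangles are replicates 1, 2 and 3, black marks are means with SD (n = 3), and each vertical axis spans 1 log2 unit. In *GGPS1* and *ZMPSTE24* control replicate 1 is the lowest point (6.28 and 8.87).

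The clusters shared with another gene cannot be assigned to the enzyme alone. The cluster of *RCE1*, the CaaX protease, is also annotated with *TOP6BL*. Its log2 values were 7.39, 7.43 and 7.40 in control and 7.36, 7.34 and 7.31 in treated cells, so that every treated array was below every control array. Treated minus control came to −0.07 on the log2 scale (95% confidence interval −0.29 to 0.16, adjusted *p* = 1 in limma over all 16634 clusters, exact permutation *p* = 0.1, two-sided, the smallest possible). The cluster of *RABGGTB*, the catalytic beta subunit of Rab geranylgeranyl transferase, is shared with *MSH4*, a meiotic gene. It was dim, with log2 values of 2.56 to 2.84 on the 6 arrays, and treated minus control was 0.04 (95% confidence interval −0.24 to 0.32). *FNTB* had a second cluster, shared with *CHURC1*, with values of 6.11, 6.21 and 6.47 in control and 6.34, 6.19 and 5.77 in treated cells. Its log2 difference was −0.16 (95% confidence interval −0.61 to 0.29), of the opposite sign to that of the cluster of *FNTB* alone, and treated replicate 3 was the lowest array.

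The enzymes that make the isoprenoid donors are the step before prenylation. Of 8 such genes from HMG-CoA synthase to farnesyl diphosphate synthase and the squalene branch, 6 were measured. Their median log2 difference was 0.56, and in 5 of the 6 every treated array lay above every control array, against 4.57% of all clusters. These 5 had an unadjusted *p* under 0.05 in limma with the block, against 0.992% of all clusters in either direction. With the block, 0 of 6 passed the correction, as did 0% of all clusters. *FDPS*, whose product is the substrate of GGPS1 and of farnesyltransferase, had log2 values of 8.26, 8.36 and 8.20 in control and 8.90, 8.89 and 8.75 in treated cells. No control array reached a treated array. In limma the log2 difference was 0.57, with a 95% confidence interval of 0.35 to 0.80 and an adjusted *p* = 0.886 (0.115 without the block). *MVD*, mevalonate diphosphate decarboxylase, had the highest log2 difference of the list (0.74) and *PMVK*, phosphomevalonate kinase, the lowest (−0.02, and 0.10 without replicate 1). Calls in this list changed with the fit. *MVD* passed the correction without the block (adjusted *p* = 0.0402 from limma). With a trended and robust variance in limma, *MVD*, *FDPS*, *MVK* and *HMGCS1* passed (adjusted *p* = 0.000615, 0.00569, 0.00847 and 0.0147), and the same 4 genes passed with the array spread as a covariate (adjusted *p* = 0.00785, 0.0351, 0.0271 and 0.0351). Without replicate 3, *MVD*, *FDPS* and *HMGCS1* passed in limma (adjusted *p* = 0.00032, 0.00777 and 1.78e-07), and *MVD* also passed without replicate 1 (0.00822) and without the array of control replicate 1 alone (0.0414). Fits with a replicate left out keep fewer arrays and lean more on the variance that limma shares over clusters. Their small *p*-values are therefore weak evidence. *IDI1* and *PMVK* passed in none of the limma alternatives run.

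The log2 difference of *FDPS* was above the upper confidence limit of each of the 5 prenylation enzymes. Its own interval, 0.35 to 0.80, overlapped that of *GGPS1*, whose upper limit was 0.40, and lay above those of the others. To compare the responses within each array, the log2 value of each enzyme was subtracted from that of *FDPS*. The difference of *FDPS* exceeded that of *GGPS1* by 0.48, that of *FNTB* by 0.53, that of *RABGGTA* by 0.54, that of *ICMT* by 0.54 and that of *ZMPSTE24* by 0.57 log2 units. In all 5 comparisons the 3 treated arrays were above the 3 control arrays. The exact permutation test, two-sided, gave *p* = 0.1 for each, the smallest that 6 arrays allow, and an adjusted *p* = 0.1 over the 5 comparisons, so none could pass 0.05. The 5 comparisons share the values of *FDPS*, in which the groups were already apart. Their separation largely repeats that of *FDPS*, and they are not independent tests.

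**Figure D2:**
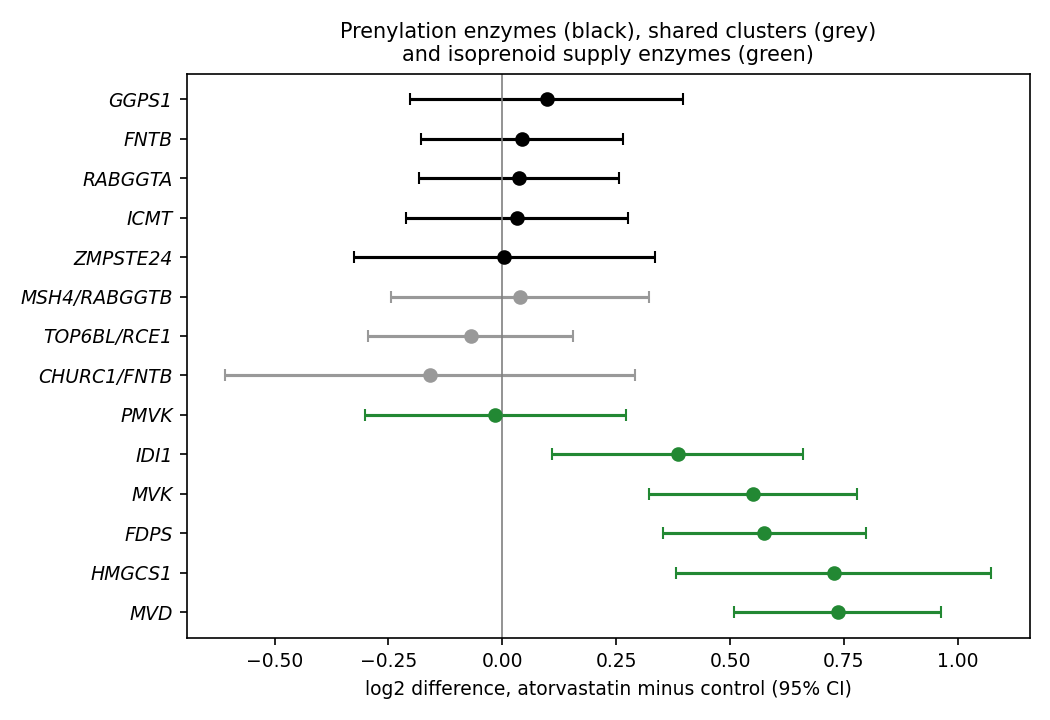
Log2 difference between atorvastatin-treated and control cells with its 95% confidence interval from limma, for the 5 prenylation enzymes (black), the 3 shared clusters (grey) and the 6 isoprenoid supply genes (green). The black intervals all include 0 and lie below the value of *FDPS*, 0.57, but the interval of *GGPS1* overlaps that of *FDPS*.

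The promoter sequences of the supply genes and of the prenylation enzymes are described below. Whether a motif relates to the array difference of a gene was not tested. A CCAAT box (CCAAT or, on the other strand, ATTGG), a promoter element bound by NF-Y, was searched on both strands in the 300 bases of each annotated start in RefSeq (GRCh38.p14). The core letters of a sterol regulatory element, TCACNCCA, were searched in the same way, with N for any base. The pair of motifs shared no base in the windows shown. A window runs from 250 bases before a start to 50 after it, and a gene with several starts has several windows. Of all 35116 windows, 34.6% held a CCAAT box and 3.95% the sterol element core. Windows of *FNTA* are not reported here. Among the other 8 prenylation enzymes, 2 held a CCAAT box and 0 held the sterol element core. These 2 were *GGPS1*, at the second of its 3 starts, and *FNTB*, each with 1 match. By window, 2 of 11 held a CCAAT box and 0 of 11 the sterol element core. The 8 enzymes include *PGGT1B*, *RABGGTB* and *RCE1*, which have no cluster of their own. Among the 6 supply genes with a measured cluster, 5 held a CCAAT box, with 3 matches in *FDPS* and 5 in *MVK*, and 1 (*MVK*, mevalonate kinase) held the sterol element core. By window, these were 6 of 9 and 1 of 9. *PMVK* held neither. A match to these letters is a description and not a known site. The windows of *FDPS* (chr1:155308616-155308915, + strand), *MVK* (chr12:109573544-109573843, + strand), *GGPS1* (chr1:235328320-235328619, + strand) and *FNTB* (chr14:64986645-64986944, + strand) are given 5′ to 3′, with both motifs in capitals.
FDPS: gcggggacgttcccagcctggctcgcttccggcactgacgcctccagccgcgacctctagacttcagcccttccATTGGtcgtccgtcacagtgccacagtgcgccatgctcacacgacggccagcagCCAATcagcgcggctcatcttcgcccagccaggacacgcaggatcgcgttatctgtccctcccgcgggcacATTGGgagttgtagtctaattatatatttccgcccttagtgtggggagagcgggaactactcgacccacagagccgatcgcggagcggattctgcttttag
MVK: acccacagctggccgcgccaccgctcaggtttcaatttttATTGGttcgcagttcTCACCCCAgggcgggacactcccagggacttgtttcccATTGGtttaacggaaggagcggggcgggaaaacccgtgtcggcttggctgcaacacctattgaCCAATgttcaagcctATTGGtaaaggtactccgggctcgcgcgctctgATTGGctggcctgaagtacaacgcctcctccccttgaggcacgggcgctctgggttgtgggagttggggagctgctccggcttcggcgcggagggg
GGPS1: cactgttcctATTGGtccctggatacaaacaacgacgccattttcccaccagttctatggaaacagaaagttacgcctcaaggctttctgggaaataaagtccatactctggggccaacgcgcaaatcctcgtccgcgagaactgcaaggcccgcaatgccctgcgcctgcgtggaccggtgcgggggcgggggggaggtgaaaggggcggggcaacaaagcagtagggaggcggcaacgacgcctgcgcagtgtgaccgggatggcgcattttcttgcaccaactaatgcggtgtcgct
FNTB: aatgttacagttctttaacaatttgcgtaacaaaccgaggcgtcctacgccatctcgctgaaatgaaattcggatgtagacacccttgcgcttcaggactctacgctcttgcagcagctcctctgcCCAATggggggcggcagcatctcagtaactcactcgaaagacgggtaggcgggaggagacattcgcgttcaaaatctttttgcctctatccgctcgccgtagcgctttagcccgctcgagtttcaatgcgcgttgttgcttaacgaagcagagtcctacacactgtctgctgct

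Genes that escort prenylated proteins or break down the prenylated remains were measured in 6 of 11 cases. Of these, 4 were higher and 2 lower on average, 0 passed the correction, and treated and control arrays overlapped in all 6. The median log2 difference was 0.07. *PCYOX1L*, which resembles the prenylcysteine oxidase PCYOX1, had the highest log2 difference (0.20, 95% confidence interval −0.07 to 0.48), with values of 6.72, 6.60 and 6.54 in control and 6.68, 6.88 and 6.91 in treated cells. Treated replicate 1 lay within the control range. An unadjusted *p* under 0.05 was reached in 0 of the 6 genes with the block in limma and in 1, *PCYOX1L* (0.0499), without it. Over all clusters these shares were 0.992% and 2.12%. For *PDE6D*, a carrier that binds prenyl groups of proteins, the log2 difference was 0.13, between limits of −0.11 and 0.37. The lowest were *RAP1GDS1*, a chaperone of small GTPases, with −0.10, and *CHML*, a Rab escort protein, with −0.09. Both were above 0 without replicate 3 (0.01 and 0.03).

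The proteins that carry the lipid were described by their mRNAs as well. Of 33 genes of CaaX proteins, 24 were measured, with 10 higher and 14 lower on average, a median log2 difference of −0.004 and 0 passing the correction or an unadjusted *p* under 0.05. Without the block, 0 passed the correction and 1 of 24 had an unadjusted *p* under 0.05, against 0.0313% and 2.12% of all clusters. In 1 of 24 genes every treated array was above every control array and in 1 of 24 every treated array was below. Over all clusters these shares were 4.57% and 2.68%. The gene with every treated array below was *NAP1L1*, a histone chaperone. Its values were 6.94, 6.88 and 7.20 in control and 6.83, 6.67 and 6.79 in treated cells. This is a log2 difference of −0.24 with a 95% confidence interval of −0.49 to 0.01 (adjusted *p* = 1 in limma), or −1.18-fold. Its unadjusted *p* from limma was 0.057 with the block and 0.0448 without it, and 0.022 to 0.25 over the alternatives. Control replicate 3 was the highest array, and the difference was smallest in size (−0.14) when that array was left out without the block. *CENPE*, a kinesin of the kinetochore, had a log2 difference of −0.13, which was 0.12 without replicate 3.

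Of 19 Rab genes, the substrates of Rab geranylgeranyl transferase, 15 were measured, with 6 higher and 9 lower on average. The median log2 difference was −0.01, and 0 passed the correction or an unadjusted *p* under 0.05. The range ran from −0.15 in *RAB21*, an early endosome Rab, and −0.13 in *RAB9A*, a late endosome Rab, to 0.06 in *RAB5B* and 0.08 in *RAB11B*, Rabs of early and recycling endosomes. The difference of *RAB21* was 0.05 without replicate 3. The treated arrays were all above the control arrays in *RAB11B* (9.61, 9.70 and 9.68 in control, 9.74, 9.73 and 9.75 in treated cells). They were all below the control arrays in *RAB11A*, a close relative of *RAB11B* that was named after its values were seen (log2 difference −0.07). That is 1 of 15 genes in each direction, against 4.57% and 2.68% of all clusters.

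**Figure D3:**
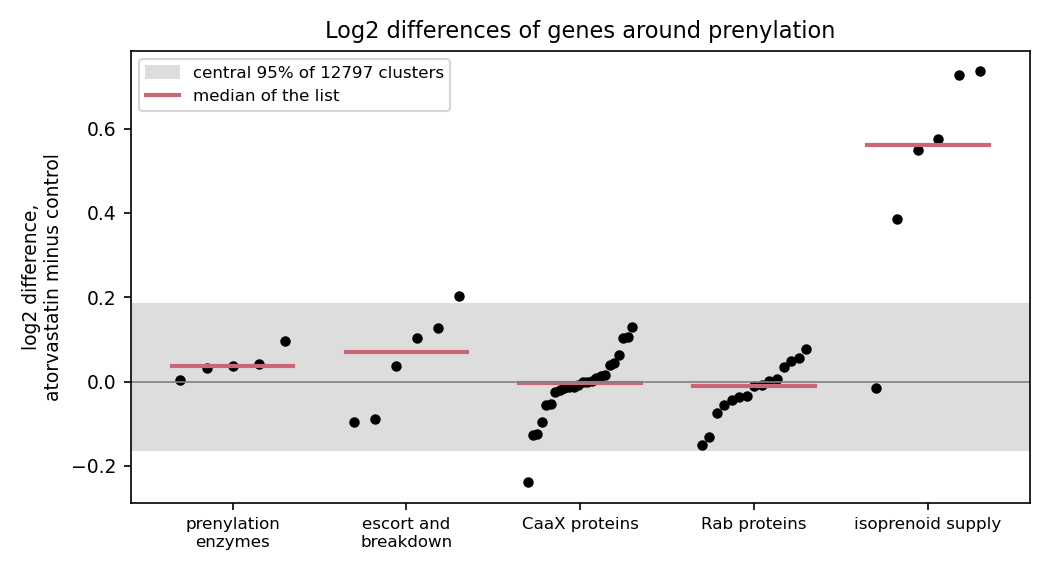
Log2 difference between atorvastatin-treated and control cells for each measured gene (points) of the prenylation enzymes and of 4 related lists, with the median of each list (red line) and the central 95% of all 12797 clusters in grey (−0.16 to 0.18). The supply genes have a median of 0.56 and the other lists medians of −0.01 to 0.07.

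*GGPS1*, *ICMT* and *ZMPSTE24* had their lowest values on the arrays with the narrowest spread, control replicate 1 and atorvastatin replicate 3. Control replicate 1 was the lowest control array in 4 of the 5 genes and in 34.7% of all clusters. The same array was lowest among controls in 4 of 6 escort, 12 of 24 CaaX, 13 of 15 Rab and 2 of 6 supply genes. Among cell type markers this held in 5 of 5 of hepatocytes, 0 of 4 of fibroblasts, 0 of 4 of endothelium and 0 of 3 of leukocytes. A low value on this array was thus not particular to the prenylation enzymes. Over the 6 arrays, *ZMPSTE24* correlated with the interquartile range of the array with a Pearson *r* of 0.91 (exact permutation *p* = 0.00694, adjusted *p* = 0.0694 over 10 coefficients) and a Spearman coefficient of 0.83 (exact permutation *p* = 0.0583, adjusted *p* = 0.194), two-sided. An *r* at least as high as that of *ZMPSTE24* was seen in 4.05% of all clusters. For the other genes this share was 6.14% (*ICMT*), 14.1% (*GGPS1*), 35.8% (*FNTB*) and 51.8% (*RABGGTA*). For *ICMT*, *r* was 0.88 (exact permutation *p* = 0.0306, adjusted *p* = 0.153) and the Spearman coefficient 0.66 (exact permutation *p* = 0.175, adjusted *p* = 0.350). For *GGPS1*, *r* was 0.76 (exact permutation *p* = 0.0889, adjusted *p* = 0.222) and the Spearman coefficient 0.49 (exact permutation *p* = 0.356, adjusted *p* = 0.524). Without control replicate 1 and atorvastatin replicate 3, the arrays farthest from the median spread, *r* was 0.46, 0.13 and −0.92, so these relations rest on those arrays. For *FNTB* and *RABGGTA*, *r* was 0.25 and −0.36 (exact permutation *p* = 0.662 and 0.412, adjusted *p* = 0.662 and 0.524) and the Spearman coefficients 0.43 and −0.37 (exact permutation *p* = 0.419 and 0.497, adjusted *p* = 0.524 and 0.552). Each group holds only 3 arrays, too few for a value within groups. With the array spread as a covariate and without the block, an alternative chosen after seeing the data, the log2 differences of the 5 genes were 0.11 for *GGPS1*, 0.04 for *FNTB*, 0.03 for *RABGGTA*, 0.04 for *ICMT* and 0.02 for *ZMPSTE24*, and 0 of 5 passed.

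**Figure D4:**
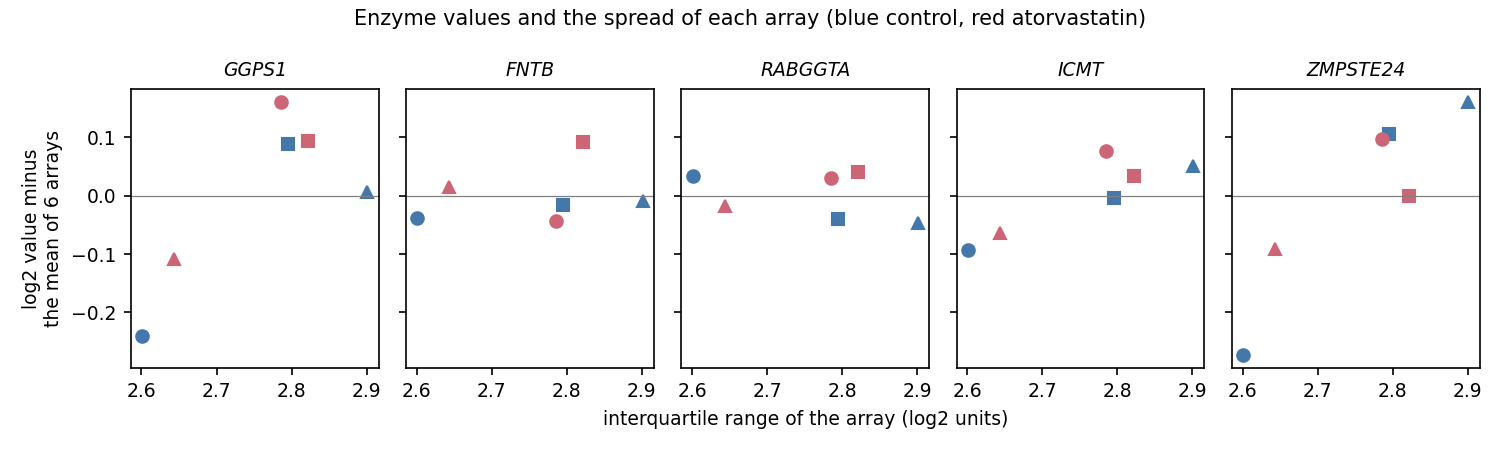
Log2 value of each prenylation enzyme minus its mean over the 6 arrays, against the interquartile range of all values on the array in log2 units. Blue points are control and red points atorvastatin arrays, and circles, squares and triangles are replicates 1 to 3. The points of *ZMPSTE24* lie lowest at the arrays of 2.60 and 2.64.

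*GGPS1* had the smallest *p* of the 5 genes (0.464, unadjusted, from limma). Over the 6 arrays, the profiles most like it among 12796 other clusters were those of *FEZ2* (Pearson *r* = 0.994), *PDLIM5* (0.984) and *GGCX* (0.983), with log2 differences of 0.06, 0.04 and 0.05 between treated and control cells. An *r* above 0.9 was reached by 1.25% of the clusters, and all points come from the same 6 arrays.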

How the data were processed

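HepG2 samples (3 without and 3 with atorvastatin, grouped by their titles) were measured by exon array. Normalization was by RMA in Partek Genomics Suite, restricted to core probe sets, whose mean per gene the authors deposited as a log2 value for each transcript cluster (range 1.48 to 13.05). The build named in the submitters' notes is hg18, no array coordinates are given, and tool versions are not given in the sources used here. The number of arrays limits the precision.

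Of 16634 clusters, the 12797 with exactly 1 gene symbol in the platform annotation were tested (12774 matched a RefSeq gene by Entrez ID, all with the same symbol). The highest-mean cluster stood for a gene with several. Treated and control arrays were compared in limma 3.58.1 (R 4.3.3; lmFit and eBayes) with replicate number as a block, after the paired test of the methods, with Benjamini-Hochberg adjustment over all clusters tested. On simulated arrays without a replicate or array spread effect, the fit was checked only for returning known differences on average. No pair of arrays held identical columns. Folds are 2 to the power of the log2 difference, with a minus sign for decreases. Motifs were searched in Python 3.11.15 and figures drawn with matplotlib 3.10.9.

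The members and lists were chosen with earlier results of these data known. The rule for named genes took all members, the 2 highest and 2 lowest of the escort, CaaX and Rab lists, *FDPS*, *PMVK* and the extremes of the supply list, and the 3 profiles closest to the member with the smallest *p*. Some CaaX genes under this rule, the 2 highest of that list among them, are not reported here. Grouping CaaX proteins by their last residue was not done. Alternatives were the fit without the block, a trended and robust variance, a mean log2 value of at least 6, median centring, quantile normalization, every cluster, 1 cluster per gene, the methods' paired t-test, and each replicate or array left out, and a covariate for array spread was added after seeing the data.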

Additional observations from a re-analysis of the deposited data

How the results depend on the processing

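Of the 5 prenylation enzymes, 0 passed the correction under the 17 alternatives run in limma or with the methods' paired t-test (lowest adjusted *p* = 0.622 in limma), and 0 had an unadjusted *p* under 0.05. All 5 were higher on average under each alternative that kept the 6 arrays, whereas the count ran from 2 to 5 when replicate numbers (with the block) or single arrays (without it) were left out, with 2 without replicate 1. The sign of 3 enzymes depended on the arrays used, with log2 differences of −0.054 to 0.20 for *GGPS1*, −0.039 to 0.10 for *ICMT* and −0.18 to 0.13 for *ZMPSTE24*. Those of *FNTB* (0.0072 to 0.075) and *RABGGTA* (0.014 to 0.062) stayed above 0. Among related genes the sign also turned in *RAP1GDS1* (−0.29 to 0.013), *CHML* (−0.25 to 0.027), *CENPE* (−0.46 to 0.12), *RAB21* (−0.29 to 0.045) and *PMVK* (−0.15 to 0.098).

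Over all clusters, 0 genes passed with the replicate block, 4 with no replicate block, 21 with a trended and robust variance and 20 with the array spread as a covariate, an alternative chosen after seeing the data. The count ran from 0 to 32 with a replicate or array left out, with 16 without replicate 1 and 32 without replicate 3. The cause was not tested. The methods' paired t-test called 0 genes after the correction and 316 at an unadjusted *p* under 0.05. Arrays with the same replicate number had deviations from their group means that correlated at −0.46, 0.07 and −0.56. None of the 3 control arrays correlated best with the treated array of its own number. These values cannot decide whether the numbers pair the samples. The deviations come from only 3 arrays per group, and the arrays of narrowest spread, control replicate 1 and atorvastatin replicate 3, carry different numbers.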
